A study of Rattus norvegicus with 42 samples.

Results

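The genes of the DNA damage and growth arrest response followed here, 8 in all, were measured in the lungs of rats that had inhaled crystalline silica or air. They are Cdkn1a, Cdkn2a, Cdkn2b, Mdm2, Gdf15, Ccng1, Gadd45a and Bbc3. All were taken by symbol from the deposited count tables, where they make up 8 of 30044 gene symbols shared by both tables. RNA from a piece of lung was sequenced in 42 male Fischer 344 rats, bought at 3 months of age, and no value is an average over pooled animals. Rats killed 9 months after exposure numbered 6 with silica and 6 in air among those fed the high-fat diet, and 5 with silica and 6 in air among those fed the regular diet. Rats killed 3 months after exposure numbered 5, 5, 5 and 4 in the same order of groups. The high-fat diet gave 60% of its energy as fat and the regular diet 18%, each begun 2 weeks before exposure and kept on afterwards. Silica was inhaled by the whole body at 15 mg/m3, with 6 hours of exposure on each of 5 days, and the other rats breathed air.

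Damage to DNA stabilises the transcription factor p53, which raises the inhibitor of cyclin-dependent kinases p21 (Cdkn1a), the growth arrest genes Ccng1 and Gadd45a, the death-promoting BH3-only protein Puma (Bbc3) and its own ubiquitin ligase Mdm2. The neighbouring loci Cdkn2a and Cdkn2b encode inhibitors of the kinases Cdk4 and Cdk6, and Cdkn2a also encodes Arf, which restrains Mdm2. Gdf15 is a secreted stress cytokine that answers both to p53 and to the integrated stress response. Crystalline silica particles persist in lung macrophages and are known to cause lasting inflammation there.

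Of the 7 genes with enough counts for the test across all genes, 2 were called higher with silica on both diets at 9 months and 1 at 3 months, where 51.6% and 45.1% of all tested genes were called at 9 months and 17.4% and 16.8% at 3 months on the high-fat and regular diets. Ccng1 was higher with silica on both diets at both times, by 1.17-fold to 1.29-fold. Gdf15 was higher with silica on both diets at 9 months, by 1.85-fold on the high-fat diet and 1.90-fold on the regular diet. Cdkn1a, Cdkn2b, Mdm2, Gadd45a and Bbc3 passed the test in none of the silica or diet comparisons. Cdkn2a was nearly silent, with 77 counts over all 42 rats, and its count sums were larger with silica in each of the 4 pairs of groups. An exact two-sided permutation test of Cdkn2a was not planned beforehand. By it the gene was higher with silica among regular-diet rats at 9 months and high-fat rats at 3 months (adjusted p = 0.0432 in both, over 8 comparisons of this gene). Neither result is shown to hold without scaling of the libraries or with single rats left out, as no adjusted p was computed there. EdgeR without its low-count filter called Cdkn2a in none of the 4 silica comparisons.

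The libraries held 3078216 to 8319382 counts each, and levels below are CPM, the counts of a gene for every 1000000 counts of its library after TMM scaling, a correction for differences in composition. They are not divided by gene length, so they are compared between rats and not between genes. Each fold change comes from edgeR's quasi-likelihood test and is called at a Benjamini-Hochberg adjusted p below 0.05 over all genes tested, 15276 at 9 months and 15234 at 3 months. Of the 8 genes, 7 passed the filter on low counts and Cdkn2a did not. Lung markers were abundant in every library, with Sftpc at 5070 to 15600 CPM and Ager at 1180 to 2040 CPM. Rnr1 and Rnr2 were taken as ribosomal RNA by their symbols alone, since the counts carry no annotation. At 9 months the share of counts on the ribosomal RNA symbols Rnr1 and Rnr2 differed between groups: it averaged 7.66% ± 0.217 with silica and 6.21% ± 1.11 in air on the high-fat diet (SD, n = 6 each), and 3.67% ± 1.07 with silica (n = 5) and 1.22% ± 0.699 in air (n = 6) on the regular diet. Each of these 4 differences had an adjusted p of 0.00432 in an exact two-sided permutation test, adjusted over 8 comparisons. By contrast, the 3-month groups averaged between 0.957% and 1.26%.

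In whole lung, a change in the number of cells of a type and a change in RNA per cell cannot be told apart. Macrophage markers rose with silica in 8 of 8 tested genes on each diet at 9 months, in 6 of 7 on the high-fat diet at 3 months and in 7 of 7 on the regular diet at 3 months. Their summed level was 1670 to 1970 CPM with silica and 526 to 650 CPM in air on the high-fat diet at 9 months, and 1620 to 2200 CPM with silica and 741 to 1110 CPM in air on the regular diet. At 3 months it was 1040 to 1330 CPM with silica and 486 to 561 CPM in air on the high-fat diet, and 1310 to 1850 CPM with silica and 621 to 784 CPM in air on the regular diet. None of the 8 macrophage markers was at 0 counts in a whole group. Neutrophil markers rose in 5, 6, 3 and 6 of 6 in the same 4 comparisons. Endothelial markers fell in 6, 5, 5 and 4 of 6. Fibroblast markers fell in 5 and 4 of 5 on the high-fat and regular diets at 9 months, and 1 of 5 was called on each diet at 3 months. Lung epithelium markers split at 9 months, with 4 higher and 6 lower of 11 on the high-fat diet and 3 higher and 5 lower on the regular diet. Of 6 lymphoid markers 1, 3, 0 and 0 were called in the 4 comparisons. Beside these counts, 51.6%, 45.1%, 17.4% and 16.8% of all tested genes were called in either direction in the same 4 comparisons. The part of these marker shifts in the levels of the 8 genes was not tested.

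**Figure D1:**
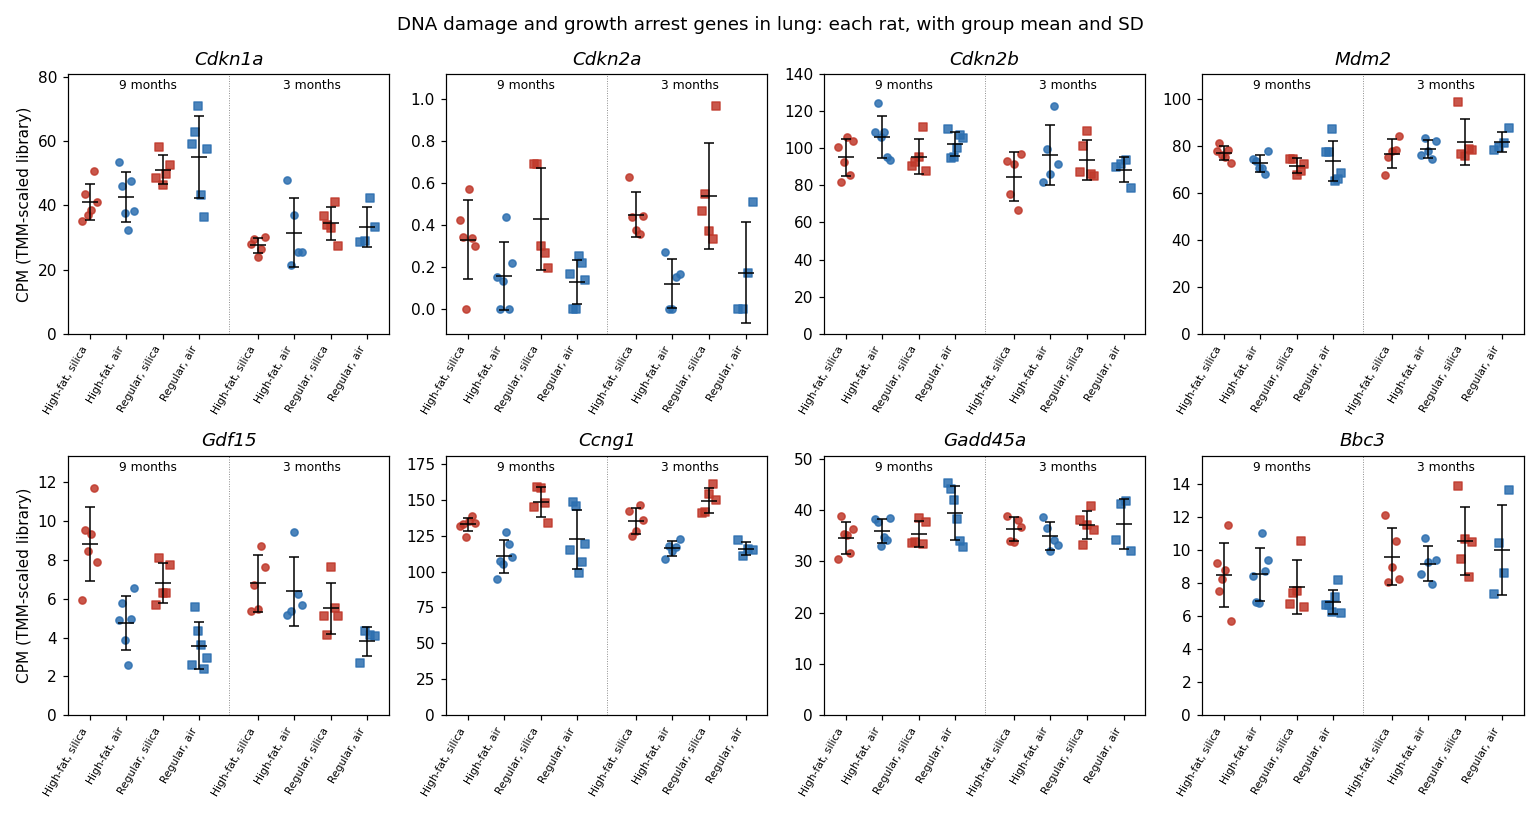
Each panel plots 1 of the 8 genes, with the CPM of every rat on a linear axis (red, silica; blue, air; circles, high-fat diet; squares, regular diet) and bars for the group mean and SD. Ccng1 and Gdf15 sit higher with silica at 9 months, Cdkn2a stays below 1 CPM in all 42 rats, and the remaining panels show silica and air rats in the same range.

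Silica was first compared with air on the high-fat diet at 9 months. Here 2 of the 7 tested genes were called higher and 0 lower, while 51.6% of all tested genes were called. The median log2 fold change of the 7 was 0.00795, against 0.000529 over all tested genes. Among regular-diet rats at 9 months 2 of 7 were called higher and 0 lower, with 45.1% of all tested genes called, and the medians were -0.036 for the 7 and 0.00451 for all. Among high-fat rats at 3 months 1 of 7 was called higher and 0 lower, with 17.4% of all genes called and medians of 0.0461 for the 7 and -0.00742 for all. Among regular-diet rats at 3 months 1 of 7 was called higher and 0 lower, with 16.8% of all genes called and medians of 0.0705 for the 7 and -0.00855 for all. The share of the 7 genes called was 28.6% on each diet at 9 months, below that of all tested genes. At 3 months it was 14.3% on each diet, near that of all tested genes. With only 7 genes these shares are coarse, and the set was not tested.

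Ccng1 encodes cyclin G1, an early p53 target that binds a subunit of protein phosphatase 2A. At 3 months on the high-fat diet it measured 142.0, 125.0, 127.9, 146.4 and 135.9 CPM in the silica rats, against 108.7, 117.6, 114.2, 117.3 and 122.8 CPM in the air rats. Every silica rat lay above every air rat. The log2 fold change was 0.22 ± 0.053 (SE; adjusted p = 0.00532, edgeR). On the regular diet it measured 140.8, 141.4, 154.0, 160.9 and 149.6 CPM with silica, against 121.7, 110.8, 116.0 and 114.7 CPM in air, again without overlap. This was the largest of the 4 silica differences of Ccng1, with a log2 fold change of 0.37 ± 0.057 (adjusted p = 9.57e-05).

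At 9 months the groups overlapped. Ccng1 on the high-fat diet had a median of 133.6 CPM with silica, with 5 of the 6 rats between 131.7 and 138.4 CPM, and ran from 94.5 to 127.6 CPM in air, with a median of 108.6. Those 5 silica rats lay above every air rat, and the remaining silica rat, number 3, lay below the highest air rat. The difference on the log2 scale was 0.26 ± 0.082 (adjusted p = 0.00892). Its values on the regular diet were 145.0, 159.1, 157.9, 148.0 and 133.5 CPM with silica, and ran from 99.1 to 148.4 CPM in air with a median of 117.2. Air rats 2 and 3 of that group stood at 148.4 and 145.3 CPM, within the range of the silica group. The log2 fold change was 0.28 ± 0.085 (adjusted p = 0.00803). With the ribosomal RNA share in the fit it was 0.29 with an adjusted p of 0.0949, which ends the call. In that fit the calls on the high-fat diet at 9 months (adjusted p = 0.0359) and on both diets at 3 months (0.01 and 0.000322) remained.

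The 4 silica groups averaged 132.8 ± 4.85, 148.7 ± 10.5, 135.4 ± 9.07 and 149.3 ± 8.54 CPM for the high-fat and regular diets at 9 months and the high-fat and regular diets at 3 months, with n = 6, 5, 5 and 5. The 4 air groups averaged 110.5 ± 11.5, 122.3 ± 20.3, 116.1 ± 5.17 and 115.8 ± 4.51 CPM in that order, with n = 6, 6, 5 and 4. Both silica means on the regular diet were thus above both on the high-fat diet. The difference between diets among silica rats had an adjusted p of 0.317 at 9 months, with a log2 fold change of -0.16, and of 0.245 at 3 months, with a log2 fold change of -0.14. Neither is called.

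The promoter of Ccng1 is shown because it is one of 2 among these genes that hold a close match to the p53 response element. That element consists of a pair of 10-base half-sites whose cores read CWWG, where W is A or T. The search took both half-sites side by side with no spacer and at most 1 mismatch in the 20 bases. The C and G of both cores had to be intact. The element reads alike on both strands, so both were covered. Promoters run from 250 bases before to 50 bases after the start of each gene, from RefSeq on build GRCr8, while the counts were made on Rnor_6.0. The match occurred in 17 of 33469 promoters, or 0.0508%. In Ccng1 it lies 242 to 223 bases before the start, in Cdkn1a 201 to 182 bases before it, and capitals mark it below. The 1 mismatch of the Ccng1 match lies at a W of a core.
Ccng1, chr10:25684827-25685126, minus strand: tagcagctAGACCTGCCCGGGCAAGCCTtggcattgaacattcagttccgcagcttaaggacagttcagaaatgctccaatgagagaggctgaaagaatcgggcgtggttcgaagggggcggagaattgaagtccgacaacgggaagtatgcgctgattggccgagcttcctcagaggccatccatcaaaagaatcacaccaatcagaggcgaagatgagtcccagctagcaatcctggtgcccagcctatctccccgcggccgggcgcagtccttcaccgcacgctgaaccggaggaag
Cdkn1a, chr20:7150682-7150981, plus strand: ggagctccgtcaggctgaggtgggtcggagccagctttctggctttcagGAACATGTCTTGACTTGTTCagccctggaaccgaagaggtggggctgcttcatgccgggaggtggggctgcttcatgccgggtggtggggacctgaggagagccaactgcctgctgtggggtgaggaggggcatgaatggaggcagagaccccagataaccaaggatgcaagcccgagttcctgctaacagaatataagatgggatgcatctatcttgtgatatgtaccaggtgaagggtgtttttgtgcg

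Of the 8 genes, 7 had a promoter in the table, and Bbc3 did not. In Cdkn2a, Cdkn2b, Mdm2, Gadd45a and both listed promoters of Gdf15 the closest stretch had 4 to 7 mismatches. A match, or the lack of one, is a description of the letters in this window and not of binding. Sites outside the window or with a spacer were not searched. The stress response element of Atf4 and Cebp proteins, TGATGNAA on either strand, occurred in 3.98% of all promoters and in none of the 8 promoters of these genes. The 17 promoters belong to 14 symbols, of which 5 were tested here, among them Ccng1 and Cdkn1a. Ccng1 was called higher with silica in all 4 comparisons, and Cdkn1a, Gtse1 and LOC102549694 were called in none. Of the 5, 2 were called on each diet at 9 months and 1 on each diet at 3 months. Among all tested genes 51.6% and 45.1% were called at 9 months and 17.4% and 16.8% at 3 months, on the high-fat and regular diets. Rnps1, an RNA splicing factor gene with a match, rose on the high-fat and regular diets at 9 months by 0.27 and 0.18 on the log2 scale (adjusted p = 0.000345 and 0.0162, edgeR), and at 3 months its log2 fold changes were 0.10 and 0.18 (adjusted p = 0.274 and 0.0571).

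Gdf15 was the other of the 7 tested genes called higher with silica, on both diets at 9 months and on neither at 3 months. At 9 months on the high-fat diet it ran from 5.93 to 11.7 CPM with silica, with a median of 8.88, and from 2.61 to 6.54 CPM in air, with a median of 4.92. The log2 fold change was 0.89 ± 0.19 (adjusted p = 0.000372, edgeR), and only 1 silica rat, at 5.93 CPM, lay within the air range. The regular-diet rats with silica at 9 months measured 5.70, 8.08, 6.28, 6.32 and 7.72 CPM, and those in air ran from 2.37 to 5.58 CPM with a median of 3.30. All 5 silica rats lay above all 6 air rats, and the log2 fold change was 0.93 ± 0.22 (adjusted p = 0.00111). After adding the ribosomal RNA share to the fit the log2 fold change was 0.80 on the high-fat diet (adjusted p = 0.00809) and 0.79 on the regular diet (adjusted p = 0.0635), so that the call on the regular diet is lost.

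At 3 months Gdf15 was not called on either diet. High-fat rats with silica measured 5.34, 6.73, 5.47, 8.74 and 7.66 CPM, against 5.16, 5.35, 9.46, 6.23 and 5.68 CPM in those in air. The groups overlapped throughout, and the log2 fold change of 0.09 had an interval of -0.30 to 0.49 (95%; adjusted p = 0.803, edgeR). Regular-diet rats with silica measured 5.14, 4.12, 7.66, 5.51 and 5.10 CPM, against 2.70, 4.35, 4.11 and 4.08 CPM in air. Here 4 of the 5 silica rats lay above all air rats, and the log2 fold change of 0.53 had an interval of 0.033 to 1.02 (adjusted p = 0.132).

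Whether the silica effect differed between times was tested as the effect at 9 months minus that at 3 months in a fit of all 8 groups over 15759 genes. For Gdf15 on the high-fat diet this difference was 0.80 ± 0.28 on the log2 scale (adjusted p = 0.0557, edgeR), just outside the threshold. It was called by limma voom (0.77, adjusted p = 0.0338) and when any 1 of 4 rats was left out, and in none of the other 7 fits, among them that with the ribosomal RNA share (0.76, adjusted p = 0.1). Over the 22 fits without 1 rat the difference ran from 0.63 to 0.91 and the adjusted p from 0.0214 to 0.148, with the lowest difference and highest p without air rat 3 at 3 months. The difference on the regular diet was 0.40 with an interval of -0.28 to 1.07 (adjusted p = 0.539). None of the 7 tested genes was called on the high-fat diet, where 10.7% of all genes were, and none on the regular diet, where 6.78% were. At an unadjusted p below 0.05, 1 of the 7 passed on the high-fat diet and 0 on the regular diet. DESeq2 called 0 on both diets, and limma voom called 1 on the high-fat diet and 0 on the regular diet.

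Gdf15 was also compared between diets. In air at 3 months every high-fat rat lay above every regular-diet rat, with means of 6.38 ± 1.77 CPM on the high-fat diet (SD, n = 5) and 3.81 ± 0.751 CPM on the regular diet (n = 4). The high-fat mean holds rat 3 at 9.46 CPM, with the others at 5.16 to 6.23. The regular-diet mean holds rat 1 at 2.7 CPM, with the others at 4.08 to 4.35, and both rats widen the gap between the means. At 0.70 ± 0.24 the log2 fold change missed the threshold (adjusted p = 0.0942, edgeR). Among silica rats at 3 months it was 0.27 (adjusted p = 0.607), with silica at 9 months 0.36 (adjusted p = 0.335) and in air at 9 months 0.40 (adjusted p = 0.238). All 4 values have the same sign and none is called.

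The counts of Gdf15 were low, at 11 to 69 per rat, and share a locus with another gene. In the GRCr8 annotation 32.2% of the length of Gdf15, on the plus strand, overlaps Lrrc25 on the minus strand, a membrane protein gene expressed in leukocytes. The libraries kept strand, but the strand setting of the counting is not given in the sources used here, so reads of both genes cannot be separated with certainty. Lrrc25 held 85 to 169 counts with silica and 41 to 81 in air on the high-fat diet at 9 months. It rose with silica in all 4 comparisons, by 1.37 and 0.99 on the log2 scale on the high-fat and regular diets at 9 months and by 0.61 and 0.75 at 3 months (adjusted p = 8.91e-11, 5.08e-08, 0.00227 and 0.000766, edgeR). At 3 months on the high-fat diet Lrrc25 was thus called and Gdf15, with 0.09, was not. The part of Lrrc25 reads in the Gdf15 values was not tested.

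**Figure D2:**
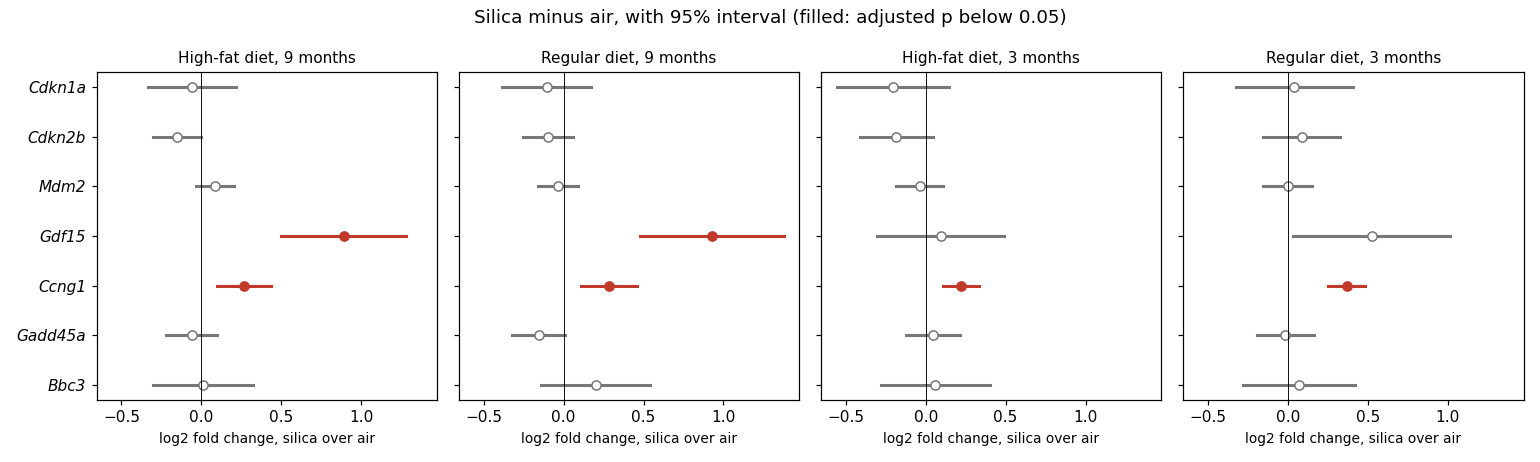
The log2 fold change of silica over air is drawn for each of the 7 tested genes with its 95% interval, in 1 panel per diet and time, filled where the adjusted p is below 0.05. Ccng1 is filled in all 4 panels and Gdf15 in both 9-month panels, while the intervals of Cdkn1a, Mdm2, Gadd45a and Bbc3 span 0 in every panel.

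Cdkn1a encodes p21, the inhibitor through which p53 stops the cell cycle. At 9 months on the high-fat diet it ran from 35.0 to 50.8 CPM with silica, with a median of 39.8, and from 32.3 to 53.4 CPM in air, with a median of 42.3. Regular-diet rats with silica at 9 months measured 48.4, 58.3, 46.5, 49.8 and 52.7 CPM, and those in air ran from 36.4 to 71.0 CPM with a median of 58.3. The silica range lay inside the air range on both diets. Its log2 fold changes were -0.06 and -0.11, with intervals of -0.33 to 0.22 and -0.38 to 0.17. On these intervals a rise of p21 mRNA by more than 1.2-fold is not covered on either diet at 9 months.

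At 3 months Cdkn1a measured 27.8, 29.4, 24.0, 26.4 and 30.0 CPM with silica on the high-fat diet, against 47.8, 21.6, 37.1, 25.4 and 25.6 CPM in air. The air group held both the highest and the lowest rat. Regular-diet rats with silica measured 36.7, 34.0, 32.9, 41.1 and 27.3 CPM, against 28.5, 29.1, 42.3 and 33.2 CPM in air. Its log2 fold changes were -0.21 and 0.04, with intervals of -0.56 to 0.15 and -0.33 to 0.41.

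At 9 months the differences of Cdkn1a between diets were larger than those between silica and air, and they too were not called. In air at 9 months it averaged 42.6 ± 7.79 CPM on the high-fat diet and 55.1 ± 12.9 CPM on the regular diet (SD, n = 6 each), with a log2 fold change of -0.37 ± 0.13 (adjusted p = 0.0563, edgeR). With silica at 9 months it averaged 41.0 ± 5.69 CPM on the high-fat diet (n = 6) and 51.1 ± 4.59 CPM on the regular diet (n = 5), with a log2 fold change of -0.32 (adjusted p = 0.215). At 3 months the log2 fold change of diet was -0.32 with silica (adjusted p = 0.45) and -0.07 in air (adjusted p = 0.862). In air at 9 months the gene was called by DESeq2 (-0.37, adjusted p = 0.032), by limma voom (-0.36, adjusted p = 0.0375) and with RLE size factors (-0.37, adjusted p = 0.0485). With the ribosomal RNA share in the fit the log2 fold change was -0.41 and the adjusted p was 0.868. That fit called 1 of all tested genes in this comparison, against 2325 without the share. That share averaged 6.21% in the high-fat rats and 1.22% in the regular-diet rats of this comparison. It ran from 4.62% to 7.19% and from 0.375% to 2.29% without overlap, so diet and share cannot be told apart here.

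The level of Cdkn1a also differed between the sets of rats. All 4 group means at 9 months, 41.0 to 55.1 CPM, lay above all 4 at 3 months, 27.5 to 34.4 CPM. Each time point has its own table, so time, age and any difference between the sets of libraries cannot be told apart, and no test was made. Over the 8 group means Cdkn1a was most like Csf1r, the receptor of the macrophage growth factor, by Pearson's r of mean log2 CPM (0.982), followed by Eml5 (0.977) and Golph3 (0.977), among 12505 genes. These are descriptions over 8 points that share libraries.

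Cdkn2a encodes the kinase inhibitor p16Ink4a and, in another reading frame, Arf, and counts per symbol do not separate these transcripts. Its counts were 3, 1, 0, 3, 2 and 2 in the 6 silica rats on the high-fat diet at 9 months and 1, 0, 1, 3, 0 and 1 in the 6 air rats. At 9 months on the regular diet they were 4, 4, 2, 2 and 1 with silica and 1, 0, 0, 2, 1 and 1 in air. At 3 months they were 4, 3, 3, 2 and 3 with silica and 2, 0, 0, 1 and 1 in air on the high-fat diet, and 3, 4, 3, 2 and 7 with silica and 0, 0, 1 and 3 in air on the regular diet. Of the 9 rats with 0 counts, 8 breathed air and 1 silica.

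Summed over rats, Cdkn2a had 11 counts with silica against 6 in air on the high-fat diet at 9 months, and 13 against 5 on the regular diet. At 3 months it had 15 with silica against 4 in air on the high-fat diet, and 19 against 4 on the regular diet. As CPM of the pooled, unscaled counts of the group this is 0.318 with silica (exact Poisson interval 0.159 to 0.569) against 0.149 in air (0.0547 to 0.324) on the high-fat diet at 9 months, and 0.448 with silica (0.25 to 0.738) against 0.127 in air (0.0346 to 0.325) on that diet at 3 months. These intervals cover counting error only. An exact two-sided permutation test of CPM gave p = 0.13, 0.0108, 0.00794 and 0.0794 in the order high-fat and regular diet at 9 months, then high-fat and regular diet at 3 months. Adjusted over the 8 silica and diet comparisons of Cdkn2a the permutation p was 0.26, 0.0432, 0.0432 and 0.212. On CPM without TMM scaling the unadjusted permutation p was 0.147, 0.0152, 0.00794 and 0.0794 in that order. Adjusted values were not computed for it, so neither adjusted p below 0.05 is shown to hold without the scaling. The value 0.00794 is the smallest that 5 against 5 rats allow, and there every silica rat lay above every air rat in CPM. In counts, silica rat 4 and air rat 1 of that comparison tied at 2, so their order rests on library size.

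In edgeR without the low-count filter Cdkn2a had log2 fold changes of 1.08, 1.47, 1.67 and 1.57 in that order, which depend on the prior count at such low numbers. Their adjusted p over all genes was 0.206, 0.081, 0.151 and 0.169, so the gene is called in none of them. Between the high-fat and the regular diet, Cdkn2a had 11 against 13 counts with silica and 6 against 5 in air at 9 months, and 15 against 19 with silica and 4 against 4 in air at 3 months. The permutation p of these 4 differences was 0.489, 0.766, 0.579 and 0.746 (exact, two-sided).

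Cdkn2b, the neighbour that encodes p15Ink4b, a target of TGF-beta signalling, was measured with 240 to 886 counts per rat. At 9 months on the high-fat diet it ran from 81.9 to 106.0 CPM with silica, with a median of 96.6, and from 93.4 to 124.4 CPM in air, with a median of 107.4. The groups overlapped, and the log2 fold change of -0.15 ± 0.073 missed the threshold (adjusted p = 0.079, edgeR). Once Rnr1 and Rnr2 were left out of the library size it was called lower (-0.19, adjusted p = 0.0377), while with the ribosomal RNA share in the fit it was -0.09 (adjusted p = 0.429). The other silica log2 fold changes were -0.10 on the regular diet at 9 months, -0.18 on the high-fat diet at 3 months and 0.09 on the regular diet at 3 months. None of the 4 diet differences of Cdkn2b was called, and they ran from -0.15 to 0.12.

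Mdm2, the ligase that marks p53 for degradation, varied little. Its group means lay between 71.6 and 81.7 CPM, and single rats ran from 65.2 to 98.8 CPM. The silica log2 fold changes were 0.08, -0.04, -0.04 and -0.0008 on the high-fat and regular diets at 9 months and the high-fat and regular diets at 3 months. Their intervals reached from -0.18 at the lowest to 0.20 at the highest, so that a change of Mdm2 mRNA beyond 1.2-fold lies outside all 4. The diet differences of Mdm2 ran from -0.09 to 0.10 on the log2 scale, and none was called.

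Gadd45a, which binds Pcna and takes part in arrest and repair, had group means of 34.6 to 39.4 CPM. At 9 months on the regular diet it measured 33.5, 33.7, 38.4, 33.3 and 37.6 CPM with silica and 32.8 to 45.2 CPM in air, with a median of 40.1. That was its largest silica difference, a log2 fold change of -0.16 ± 0.081 (adjusted p = 0.121, edgeR). Without rat 6 of the air group it was -0.22 and called (adjusted p = 0.0281). The other silica values were -0.06, 0.05 and -0.02 for the high-fat diet at 9 months and the high-fat and regular diets at 3 months. Gadd45a, on the minus strand, shares 26.4% of its GRCr8 length with the uncharacterised long non-coding gene LOC100912188 on the plus strand, which had 5 to 31 counts per rat.

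Bbc3 encodes Puma, which binds and blocks the survival proteins of the Bcl2 family. It had 22 to 89 counts per rat and group means of 6.85 to 10.6 CPM. Its silica log2 fold changes were 0.01, 0.20, 0.06 and 0.07 in the order used for Mdm2, and none was called. The widest of the 4 intervals ran from -0.28 to 0.42 and the highest upper bound was 0.54, so that at this depth a rise of Bbc3 by 1.4-fold on the regular diet at 9 months is still within its interval. The largest diet difference was 0.31 in air at 9 months (adjusted p = 0.181, edgeR), with means of 8.51 ± 1.61 CPM on the high-fat diet and 6.85 ± 0.739 CPM on the regular diet (SD, n = 6 each).

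Across diets, none of the 7 tested genes was called. With silica at 9 months 0 of 7 were called, while 3.52% of all genes were, and in air at 9 months 0 of 7, while 15.2% of all genes were. With silica at 3 months 0 of 7 were called, with 0.702% of all genes, and in air at 3 months 0 of 7, with 2.95% of all genes. In each of these 4 comparisons 1 of the 7 had an unadjusted p below 0.05: Cdkn1a in both at 9 months, Ccng1 with silica and Gdf15 in air at 3 months. DESeq2 and limma voom each called 1 of the 7, Cdkn1a, in air at 9 months and 0 in the other 3.

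**Figure D3:**
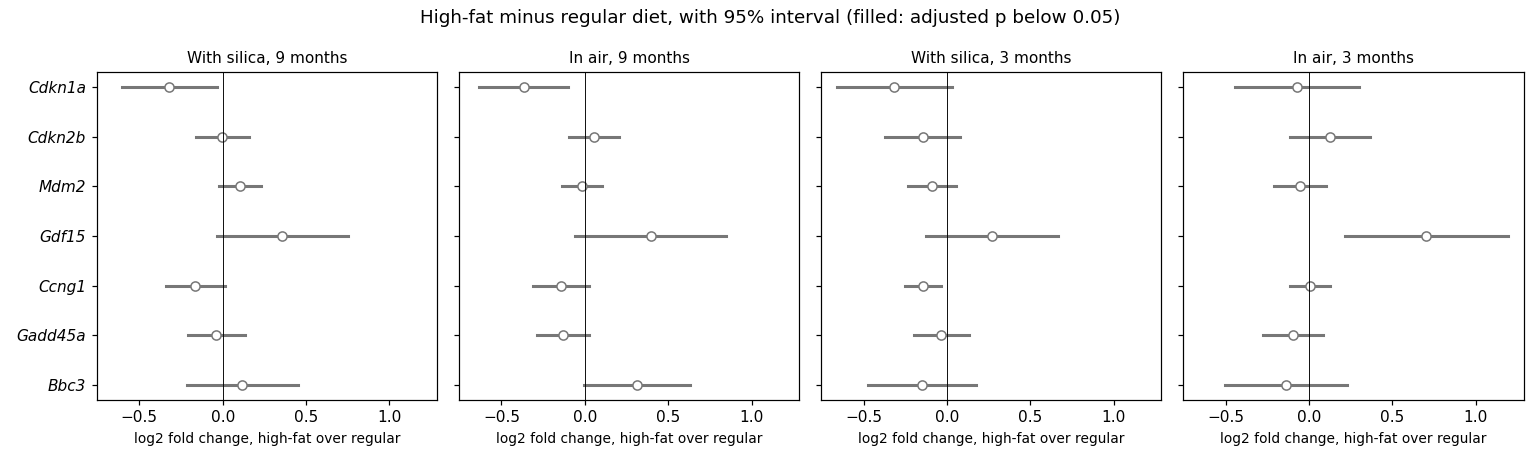
The log2 fold change of high-fat over regular diet is drawn for the 7 tested genes with its 95% interval, in 1 panel per exposure and time. No point is filled, Cdkn1a lies left of 0 and Gdf15 right of 0 in all 4 panels, and the longest distance from 0 is that of Gdf15 in air at 3 months, 0.70.

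The silica effect did not pass a test for a difference between diets in any of the 7 genes. At 9 months 0 of 7 were called and 1.09% of all genes were. At 3 months 0 of 7 were called and 0% of all genes were, with 990 genes at an unadjusted p below 0.05, 1 gene called by DESeq2 and 0 by limma voom. No tested gene of the 7 had an unadjusted p below 0.05 in either, and DESeq2 and limma voom called 0 of the 7 in both. For Gdf15 the silica effect on the high-fat diet minus that on the regular diet was -0.04 at 9 months (interval -0.63 to 0.55) and -0.43 at 3 months (interval -1.07 to 0.20). For Ccng1 it was -0.02 at 9 months (interval -0.26 to 0.22) and -0.15 at 3 months (interval -0.31 to 0.014). The interval for Gdf15 at 9 months leaves room for silica effects that differ by 1.4-fold between diets in either direction.

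Regulators of the p53 pathway were counted beside all tested genes. Of 9 tested genes for regulators of p53, its relatives and the damage kinases, 2 rose and 3 fell with silica on the high-fat diet at 9 months, 1 rose and 1 fell on the regular diet at 9 months, and 0 were called on either diet at 3 months. The share of these 9 called was 55.6%, 22.2%, 0% and 0%, against 51.6%, 45.1%, 17.4% and 16.8% of all tested genes, so that none of the 4 stands more than a few points above the share of all genes. The checkpoint kinase gene Chek2 rose by 0.79 and 0.50 on the high-fat and regular diets at 9 months (adjusted p = 0.000144 and 0.011, edgeR), and its log2 fold changes at 3 months were 0.28 and 0.42 (adjusted p = 0.262 and 0.0818). Chek1, the other checkpoint kinase gene, rose by 0.61 on the high-fat diet at 9 months (adjusted p = 0.00343) and gave 0.28 on the regular diet (adjusted p = 0.212). Atr, a kinase that senses stalled replication, fell by 0.22 on the regular diet at 9 months (adjusted p = 0.0368). Mdm4, the partner of Mdm2 that holds p53 inactive, fell by 0.15 on the high-fat diet at 9 months, and Ppm1d, the phosphatase that ends the damage signal, was not called with silica in any comparison. None of the 9 was called for a difference in the silica effect between times, where 10.7% and 6.78% of all genes were on the high-fat and regular diets. For Chek2 that difference was 0.51 on the high-fat diet (adjusted p = 0.137) and 0.07 on the regular diet (adjusted p = 0.76).

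Other p53 targets split in direction. Of 22 tested, 11 rose and 4 fell on the high-fat diet at 9 months, and 9 rose and 5 fell on the regular diet, with median log2 fold changes of 0.195 and 0.0588. At 3 months 3 rose and 3 fell of 23 on the high-fat diet, and 2 rose and 0 fell on the regular diet. As shares called these are 68.2%, 63.6%, 26.1% and 8.7%, above that of all tested genes (51.6%, 45.1% and 17.4%) in the first 3 comparisons and below it (16.8%) in the last, with no test of the list. Aen, a p53-induced nuclease gene, rose in all 4 comparisons, by 0.57, 0.35, 0.36 and 0.57 on the log2 scale. The death-promoting Bax rose at 9 months by 0.48 and 0.37, and Zmat3, an RNA-binding p53 target, by 0.39 and 0.52. Phlda3, a p53-induced repressor of Akt, fell at 9 months by 0.45 and 0.25. Sesn2 rose at 9 months by 0.20 and 0.18, and Eda2r was called in none. Fas, a death receptor gene, rose on the high-fat diet at 9 months by 0.29 and gave -0.03 on the regular diet, and this difference of 0.32 between diets was not called (adjusted p = 0.224).

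Growth arrest relatives of the 8 genes did not follow a single direction. Cdkn1c, which encodes the kinase inhibitor p57, fell in all 4 comparisons, by 0.49, 0.36, 0.60 and 0.41 on the log2 scale. Cdkn1b, which encodes p27, fell at 3 months by 0.28 on the high-fat diet and 0.22 on the regular diet, and was not called at 9 months. Cdkn2c was called in none, and Cdkn2d is not analysed here. Of the family of Gadd45a, Gadd45g rose in all 4 comparisons by 1.27, 0.60, 0.63 and 0.73, and Gadd45b fell at 9 months by 0.31 and 0.29. Gadd45g averaged 39.2 ± 9.64 CPM with silica and 16.2 ± 2.04 CPM in air on the high-fat diet at 9 months (SD, n = 6 each). Gadd45a thus lay within 0.16 of 0 where Gadd45g was called, although the difference between these genes was not tested.

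Among BH3-only genes, the class of Bbc3, Pmaip1 (Noxa) rose at 9 months by 1.30 on the high-fat diet and 0.95 on the regular diet. At 3 months its log2 fold changes were -0.17 and 0.57, not called. For Pmaip1 the silica effect at 9 months exceeded that at 3 months on the high-fat diet by 1.47 ± 0.35 (adjusted p = 0.00502, edgeR), and on the regular diet by 0.37 (adjusted p = 0.648). Bid rose in all 4 comparisons, by 1.07, 1.07, 0.85 and 0.81. Bcl2l11 (Bim) fell by 0.56 on the high-fat diet at 9 months and gave -0.09 on the regular diet, and this difference between diets was called (-0.47 ± 0.088, adjusted p = 0.0102).

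The integrated stress response is the other known route to Gdf15. Of its 10 tested genes at 9 months, 7 rose and 0 fell with silica on the high-fat diet, and 5 rose and 0 fell on the regular diet. Of 9 tested at 3 months, 0 were called on the high-fat diet and 2 rose on the regular diet. The shares called were 70.0%, 50.0%, 0% and 22.2%, beside the 51.6%, 45.1%, 17.4% and 16.8% of all tested genes. The transcription factor gene Atf3 rose at 9 months by 1.07 and 0.73, and Trib3, a pseudokinase gene downstream of Atf4 and Chop, by 0.79 and 0.48. Trib3 also rose on the regular diet at 3 months, by 0.66. Atf4, controlled largely at translation, and its target Ddit3 (Chop) rose on the high-fat diet at 9 months, by 0.24 and 0.25.

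Proliferation genes rose in all 4 comparisons, while the arrest genes Cdkn1a and Cdkn2b passed the test in none. Of 16 tested, 14 rose and 1 fell on the high-fat diet at 9 months, 13 rose and 1 fell on the regular diet at 9 months, 12 rose on the high-fat diet at 3 months and 13 rose on the regular diet at 3 months. The shares called were 93.8%, 87.5%, 75.0% and 81.2%, against 51.6%, 45.1%, 17.4% and 16.8% of all tested genes. The gene that fell was Tyms, thymidylate synthase, on both diets at 9 months. Mki67, the nuclear marker of cycling cells, averaged 104 ± 12.6 CPM with silica and 36.3 ± 4.65 CPM in air on the high-fat diet at 9 months (SD, n = 6 each), and its log2 fold changes were 1.51, 1.67, 0.91 and 0.94. The rise of Mki67 was larger at 9 months than at 3 months on both diets, by 0.60 and 0.71 (adjusted p = 0.00674 and 0.00404, edgeR). Cdk4, the kinase that p16 and p15 inhibit, rose by 0.25 and 0.17 at 9 months and by 0.22 on the high-fat diet at 3 months. Ccnd1, its cyclin partner, fell on the high-fat diet by 0.39 at 9 months and by 0.21 at 3 months.

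DNA repair genes rose in 8, 7, 5 and 4 of 14 in the same 4 comparisons, and 0, 1, 0 and 1 fell, with Mgmt falling on the regular diet at both times. The shares called were 57.1% on both diets at 9 months, near the 51.6% and 45.1% of all tested genes, and 35.7% on both at 3 months, beside 17.4% and 16.8%. Brca1 rose by 0.77, 0.64, 0.58 and 0.36 and Parp1 by 0.71, 0.56, 0.49 and 0.40. Genes of the senescence-associated secretion rose in 10, 9, 6 and 8 of 12 and fell in 1, 1, 0 and 1. The shares called were 91.7%, 83.3%, 50.0% and 75.0%, against 51.6%, 45.1%, 17.4% and 16.8% of all tested genes, with no test of the list. Among those that rose, Ccl2 stood at 4.68, 3.63, 3.57 and 3.06 and the macrophage elastase Mmp12 at 6.14, 3.51, 4.48 and 3.12 on the log2 scale. These secreted factors are also made by inflammatory cells, and the macrophage marker sums given above rose in the same comparisons. The part of such cells in these rises was not tested.

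**Figure D4:**
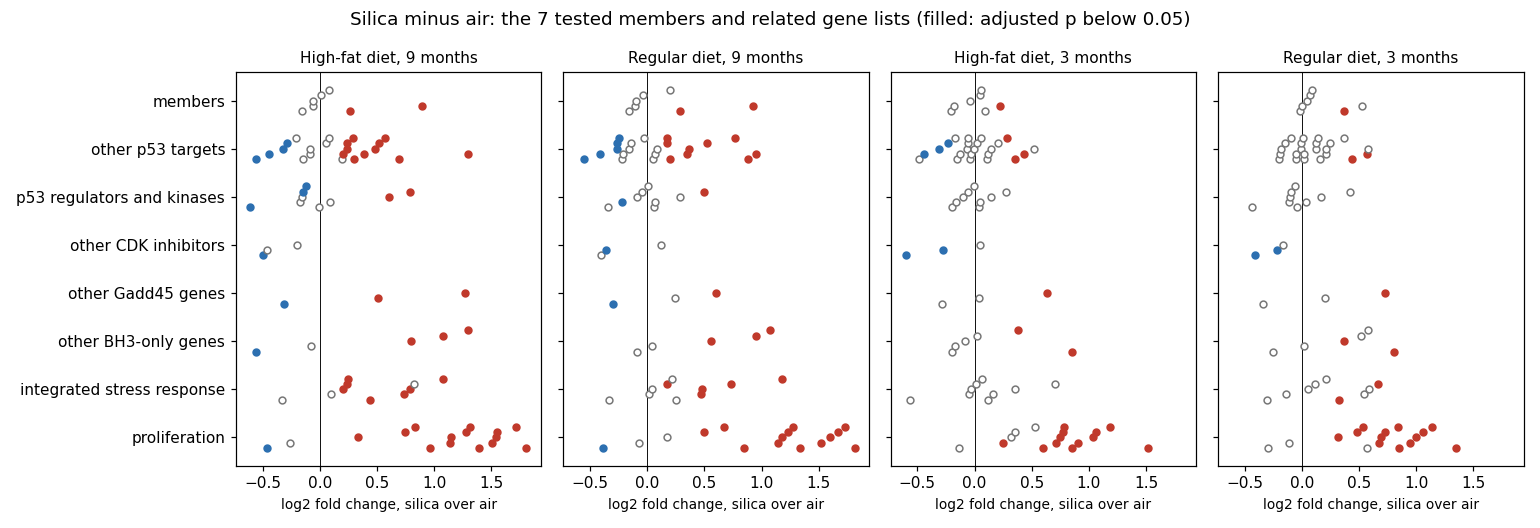
Each point is the silica over air log2 fold change of 1 gene, in rows for the 7 tested genes and related lists and in 1 panel per diet and time, red where called higher, blue where called lower and open where not called. The proliferation row lies mostly to the right of 0 in all panels, up to 1.80 for Rrm2 on the high-fat diet at 9 months, while the row of the 7 genes clusters around 0 apart from Ccng1 and Gdf15.

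The 7 tested genes were compared with each other over the 8 group means of log2 CPM, without Cdkn2a. The highest Pearson r between 2 of them was 0.833, for Cdkn1a and Cdkn2b, and the lowest was -0.806, for Cdkn1a and Bbc3. Ccng1 was most like Alox5ap, a leukotriene synthesis gene of leukocytes (r = 0.996), followed by Slc25a13 (0.988) and Wdr26 (0.986). Gdf15 was most like Atp13a1 (0.987), Hinfp (0.98) and Ap2a1 (0.975), and Mdm2 was most like Ddit3 (0.867), Ppp1r8 (0.856) and Rpain (0.84). For Cdkn2b the nearest were Sp3, Zfp418 and Rnf139 (0.971 to 0.978), for Gadd45a Nqo2, Dpy19l2 and Aste1 (0.939 to 0.956), and for Bbc3 Becn1, Ndufb11 and Samm50 (0.923 to 0.937). With 12505 candidates and 8 points that share libraries, these values describe the pattern and carry no test.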

How the data were processed

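Ribosomal RNA-depleted, stranded total RNA libraries of rat lung were sequenced, per the labels' protocols. The authors deposited raw read counts per gene symbol, 1 table per time point. The submitters' processing notes name the build Rnor_6.0, HTSeq 0.6.1, TopHat2 2.0.9, Bowtie2 2.2.9, Trimmomatic 0.35, SAMtools 0.1.19 and bcl2fastq 2.19. The strand setting and the annotation are not given in the sources used here. The 8 genes and the related lists were chosen with earlier results of these data known. Groups follow the labels. Rats are numbered in accession order, and p-values measure the spread between rats. Within each group the counts of any pair of rats differed by a chi-square per degree of freedom of at least 1.93, so none was counted as a copy.

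Counts were filtered by filterByExpr, scaled by TMM and fitted by edgeR 4.0.16 quasi-likelihood (R 4.3.3, legacy=FALSE), fitting the 4 groups of each time together and all 8 for differences over time. In all 12 comparisons were made. CPM and log2 fold changes are computed here from the deposited counts. Cdkn2a, removed by the filter, was tested by exact permutation, which was not planned beforehand. Genes named are the 8, a fixed panel of relatives (less 1 gene, absent also from its list, that is not reported here), examples from lists and the 3 nearest patterns per gene. Genes named as overlapping a member, as bearing a promoter match, or as list examples outside the panel were chosen after their values were seen. Alternatives were RLE factors, no filter, DESeq2 1.42.0, limma 3.58.1 voom, edgeR's older quasi-likelihood mode, the ribosomal RNA share as covariate, library sizes without Rnr1 and Rnr2, other groups in the fit, unscaled CPM and leaving out each rat. The script was tested on simulated data.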

Additional observations from a re-analysis of the deposited data

Results flagged for a closer look

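In 4 of 64 sets of rats (8 genes in 8 groups), 1 rat stood apart from the rest of its group by Dixon's criterion, which chance meets in about 1 of 20 sets. On the regular diet with silica at 3 months Mdm2 was 98.8 CPM in rat 1 and 75.7 to 78.8 CPM in the other 4 rats. On the high-fat diet in air at 3 months Gdf15 was 9.46 CPM in rat 3 and 5.16 to 6.23 CPM in the others. On the regular diet in air at 3 months Gdf15 was 2.7 CPM in rat 1 and 4.08 to 4.35 CPM in the others. On the regular diet with silica at 9 months Bbc3 was 10.5 CPM in rat 4 and 6.56 to 7.48 CPM in the others.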

How the results depend on the processing

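The 6 silica calls of Ccng1 and Gdf15 held in all the other fits except 2, both of which used the ribosomal RNA share as a covariate on the regular diet at 9 months, where 0 instead of 2 of the 7 genes were called (Gdf15 0.79, adjusted p = 0.0635; Ccng1 0.29, adjusted p = 0.0949) and 4561 instead of 6886 of all genes. The cause was not tested, and at 9 months that share differs between every pair of groups compared. In air at 9 months 1 of the 7, Cdkn1a, became called between diets with RLE size factors, DESeq2 or limma voom, and for the 9-month minus 3-month silica effect on the high-fat diet 1 of the 7, Gdf15, with limma voom. The cause was not tested.

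Leaving out 1 rat gave 2 to 3 of the 7 genes called for silica on each diet at 9 months, 1 to 1 on each diet at 3 months, 0 to 1 for diet in air at 9 months (1 without rats 4 or 5 on the regular diet or rat 1 on the high-fat diet), 0 to 1 for time on the high-fat diet (1 without rats 6 in air or 1 with silica at 9 months, or rats 1 in air or 4 with silica at 3 months) and 0 to 0 elsewhere. Cdkn2b became called without rats 5 or 6 in air or rat 4 with silica on the high-fat diet at 9 months (-0.193 to -0.185). The diet difference of Cdkn2a in CPM changed sign without 1 rat in 3 comparisons: -0.0266 without air rat 4 on the high-fat diet at 9 months, 0.0177 without silica rat 5 on the regular diet at 3 months and 0.061 without air rat 4 on the regular diet at 3 months, and over all left-out rats it ran from -0.0266 to 0.0604, from -0.14 to 0.0177 and from -0.109 to 0.061. For silica on the high-fat diet at 9 months the unadjusted permutation p of Cdkn2a was 0.0281 without silica rat 3 and 0.0498 without air rat 4 (exact), and on the regular diet at 3 months 0.0357 without air rat 4. Leaving out other rats raised this p. At its highest it was 0.251 and 0.0317 on the high-fat and regular diets at 9 months, and 0.0159 and 0.179 at 3 months. None of these is adjusted, so the adjusted p of 0.0432 for Cdkn2a are not shown to hold without single rats.

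Counts of all genes called moved by over 1.5 times under other settings and without single rats. With the covariate they were 1 for diet with silica and 1 in air at 9 months (537 and 2325 as reported), 92 for diet in air at 3 months (449) and 284 for time on the regular diet (1068). With DESeq2 they were 348 for the diet difference of the silica effect at 9 months (167), 1 at 3 months (0), 227 for diet with silica at 3 months (107) and 730 in air. With limma voom they were 264 for the diet difference at 9 months and 956 for diet in air at 3 months. With other groups in the fit they were 59 and 761 for diet with silica and in air at 3 months and 467 for time on the regular diet. Without 1 rat, diet in air at 3 months gave 63 to 530 (lowest without rat 4 on the regular diet; also moved by rats 1, 3 and 4 on the high-fat and 2 and 3 on the regular diet, at most 251), and diet with silica at 3 months 55 to 219 (rats 2 and 3 on the high-fat diet, 55 and 60, and 4 and 3 on the regular diet, 69 and 219). Diet with silica at 9 months gave 260 to 724 (moved by rats 3 to 6 on the high-fat diet, 262 to 350, and 2 and 3 on the regular diet, 260 and 354). The diet difference at 9 months gave 72 to 274 (high-fat silica rats 1, 3, 5 and 6, high-fat air rats 1 to 3, regular-diet silica rats 4 and 5, regular-diet air rats 2 and 4), and time on the regular diet 667 without air rat 4 at 3 months. The shares of all genes called in these comparisons are accordingly loose. No scaling moved the median of all genes by more than 0.031 on the log2 scale. Without TMM scaling Mdm2 and Ccng1 averaged 72.5 and 125 CPM with silica on the high-fat diet at 9 months. No paired analysis was possible because the labels give no replicate numbers that pair rats. Low counts of Cdkn2a, Gdf15 and Bbc3 limit what could be detected in them.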
